A study of Mus musculus with 32 samples.

Results

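The 8 genes described here encode receptors that place T cells in the gut and hold them in tissues. They are the chemoattractant receptors Ccr9 and Gpr15, the integrin subunits Itga4, Itgb7 and Itgb1, the epithelial retention integrin subunit Itgae, and the collagen receptor subunits Itga1 and Itga2. They were taken by gene symbol from a table of 16741 genes, and all 8 were in the table. The study followed donor T cells of C57Bl6 mice in a model of graft-versus-host disease with a major mismatch, in which Bl6 cells are given to Balb/c recipients. Spleen and lymph nodes gave 3 sorted populations, conventional CD4 cells, CD8 cells and regulatory T cells (Treg), whose RNA was sequenced in bulk in 31 libraries of 10 groups. No library came from the intestine, a main target of the disease.

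CD4 cells and CD8 cells each gave 2 libraries of pretransplant cells (day 0), 3 from syngeneic controls without Treg, 4 from allogeneic recipients with graft-versus-host disease and no Treg, and 4 from allogeneic recipients given Treg on day 0, called Treg-treated. For Treg there were 2 libraries of pretransplant cells and 3 from Treg-treated recipients, and neither syngeneic nor untreated allogeneic recipients gave a Treg library. Time after transplantation is 6 days in the sample titles and 8 days in the design text. The labels give no age, no conditioning of the recipients, and no strain for the syngeneic recipients. Replicate labels carry the prefix JL019 or JL027 and, for most groups, a number. Nothing else in the labels ties a library to an animal, so the p-values measure the spread between these libraries.

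T cells are steered to the small intestine by Ccr9, which reads the chemokine Ccl25 of the gut epithelium, and by the integrin of the Itga4 and Itgb7 subunits, which binds the vessel-wall adhesion molecule Madcam1. Retinoic acid made by dendritic cells of the gut is known to induce both, and Gpr15 steers T cells, Treg among them, to the large intestine. Once in the tissue, the integrin of Itgae with Itgb7 binds E-cadherin on epithelial cells, and Itga1 and Itga2, each paired with Itgb1, bind collagens. Itga4 also pairs with Itgb1, which makes a receptor for Vcam1 on inflamed vessels.

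In the table the genes are Ccr9 (ENSMUSG00000029530), Gpr15 (ENSMUSG00000047293), Itga4 (ENSMUSG00000027009), Itgb7 (ENSMUSG00000001281), Itgb1 (ENSMUSG00000025809), Itgae (ENSMUSG00000005947), Itga1 (ENSMUSG00000042284) and Itga2 (ENSMUSG00000015533). On GRCm38.p6 the chemoattractant receptors lie at chr9:123767211-123783457 (Ccr9) and chr16:58716643-58718872 (Gpr15). Itga4 lies at chr2:79255426-79333114, Itgb7 at chr15:102215994-102233405, Itgb1 at chr8:128685654-128733579 and Itgae at chr11:73090505-73147449. The annotated span of Itga4 overlaps Cerkl, that of Itgae overlaps Haspin and that of Itga1 holds Pelo, and whether counting used strand is not given in the sources used here.

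Values are counts normalised between libraries by the authors, and the number of reads behind them is unknown. The mean over all genes ranged from 1227 to 2385 between libraries. The library labelled CD4 syngeneic JL019-2 stood apart. Its Cd4 was 1659, against 16526 and 14576 in the other CD4 syngeneic libraries, its Cd8a was 1956, against 58.2 and 114, and the summed level of 12 myeloid markers was 3600380, against 84949 and 78825. Changes that use CD4 syngeneic cells are therefore given with and without it. All other changes were tested with it in the main model, whose estimate of spread is shared by all 31 libraries. It therefore enters their standard errors and p-values, and leaving it out was not run for them. In the libraries labelled Treg, Foxp3, the factor that defines these cells, was 198 and 442 at day 0, below the 1145 and 978 of the CD4 day 0 libraries, and 265 to 293 after transplantation. In the same Treg-treated recipients it was 127 to 178 in CD4 and 109 to 236 in CD8 libraries, and in CD8 allogeneic libraries 103 to 453. In CD4 allogeneic libraries it was 337 to 579, above every library labelled Treg after transplantation. In CD4 syngeneic libraries it was 490, 44.9 and 905, of which 44.9 is JL019-2. The libraries labelled Treg are called Treg below after their label. Cd4 and Cd8a were otherwise high in the populations named for them. In bulk RNA, fewer cells of a type and less RNA per cell cannot be told apart.

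**Figure D1:**
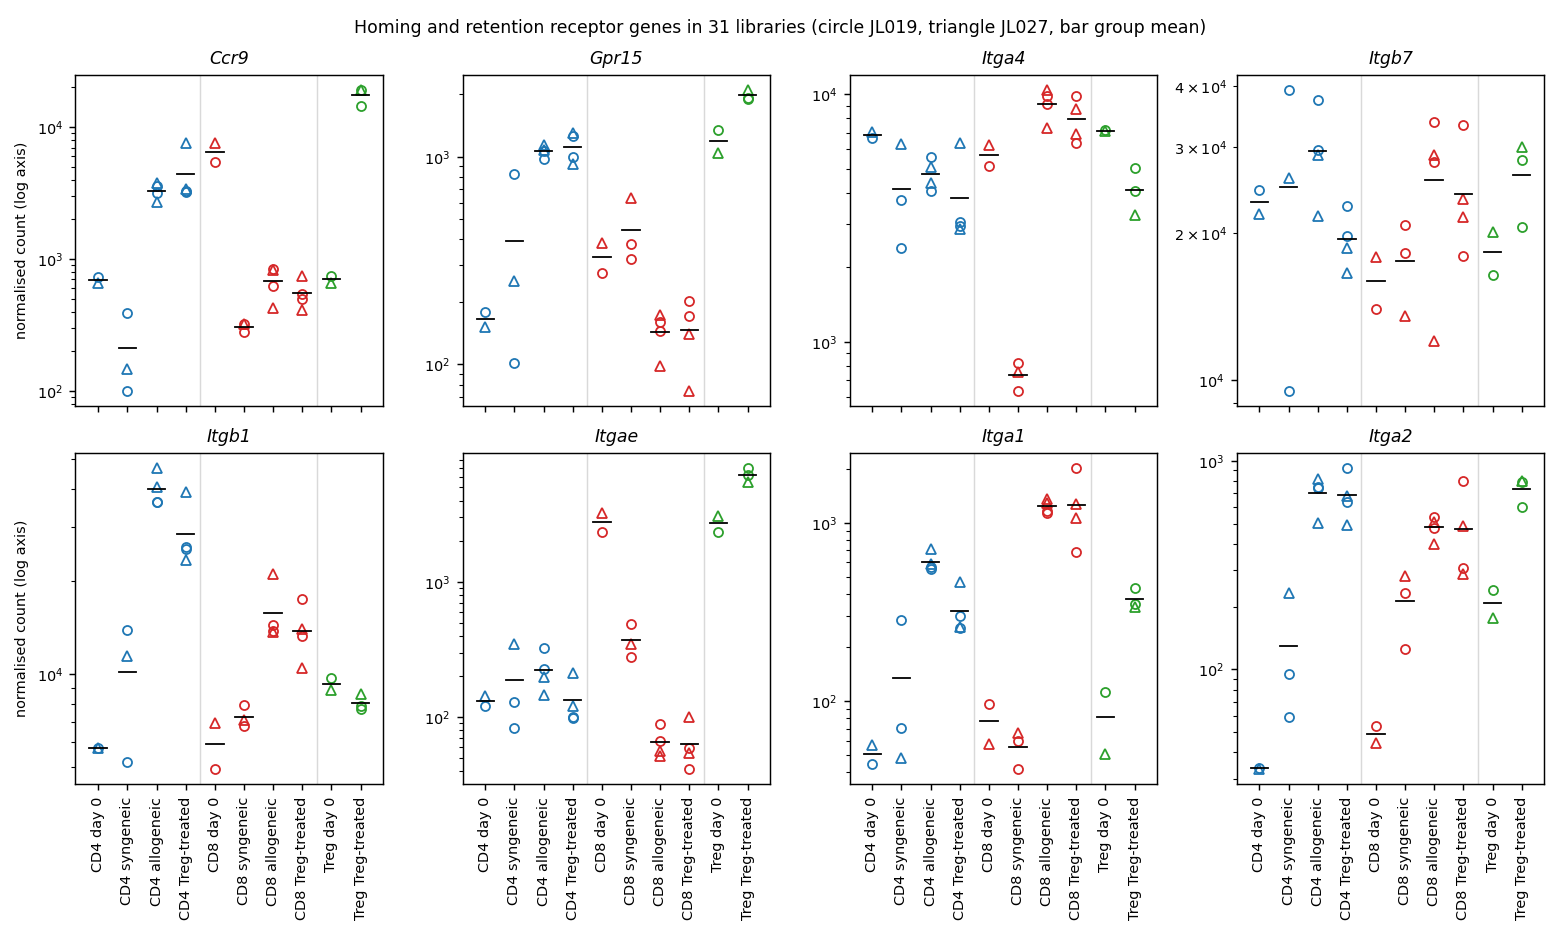
Normalised count (log axis) of the 8 genes in each of 31 libraries, with 10 groups along the horizontal axis, blue for CD4, red for CD8 and green for Treg. Circles are JL019 libraries, triangles JL027 libraries, and bars group means. Itgb7 stays between 9506 and 39279, whereas Itgae runs from 41.2 to 6950.

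The 8 genes differed in how far their levels moved between groups. The highest group mean was 97.3 times the lowest for Itgae, 83.0 times for Ccr9, 25.1 times for Itga1, 21.8 times for Itga2, 13.8 times for Gpr15, 12.5 times for Itga4, 6.95 times for Itgb1 and 1.85 times for Itgb7. Without CD4 syngeneic JL019-2 the value was 142 for Ccr9, above that of Itgae, and 2.05 for Itgb7, and it was the same for the other 6. The 16 comparisons of 2 groups were tested with limma on log2(value + 1), with adjustment over all 16741 genes at 0.05. Ccr9 passed in 12 of them, Itgae in 9, Itgb1 and Itga2 in 8 each, Gpr15 and Itga1 in 7 each, Itga4 in 6 and Itgb7 in 0. For low values, the added 1 makes the log2 change smaller than the change in the counts.

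In CD4 cells of allogeneic against syngeneic recipients, 5 of the 8 genes were higher and 0 lower, against 14.6% of all genes called in either direction. In CD8 cells, 5 were higher and 2 lower, against 21.1% of all genes. The genes higher in both were Ccr9, Itgb1, Itga1 and Itga2. Gpr15 rose in CD4 cells and fell in CD8 cells. Itga4 rose and Itgae fell in CD8 cells, where neither passed the test in CD4 cells. The difference between the CD8 and the CD4 change was itself called for 4 of the 8, Ccr9, Gpr15, Itga4 and Itgae, against 4.65% of all genes. Without the library JL019-2 the CD4 count was again 5, with 10.9% of all genes called, and the count of differences again 4, with 3.97%.

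**Figure D2:**
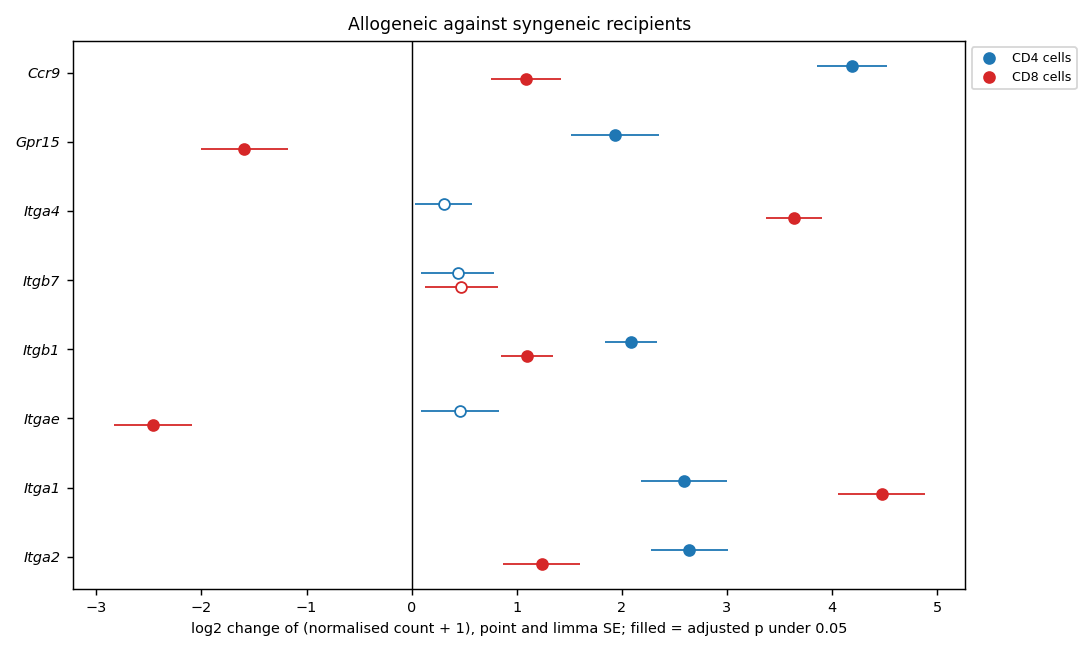
Log2 change of normalised count + 1 in allogeneic against syngeneic recipients for the 8 genes, as points with limma standard errors, blue for CD4 cells and red for CD8 cells, filled where the adjusted p was under 0.05. Gpr15 lies at 1.93 in CD4 and at -1.59 in CD8 cells, and Itga4 at 0.30 and 3.64.

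Ccr9, the receptor for the small intestinal chemokine, was 3577, 3190, 3741 and 2694 in the 4 CD4 allogeneic libraries and 100.1, 388 and 147 in the 3 CD4 syngeneic libraries. The 388 is the library that stood apart. The groups did not overlap, and the means, 3300 ± 465 (SD, n = 4) and 211 ± 154 (SD, n = 3), differed 15.6-fold, or 26.8-fold without JL019-2. The log2 change was 4.19 with a standard error of 0.334 (limma adjusted p = 6.64e-10), and without JL019-2 it was 4.74 (limma adjusted p = 1.62e-11). In CD8 cells Ccr9 was 626, 843, 823 and 424 in allogeneic and 320, 281 and 321 in syngeneic libraries. These groups lay apart as well, but closer, with a log2 change of 1.09 ± 0.334 (SE, limma's adjusted p = 0.0195). That call was lost in 4 of the 7 fits that left out a library, with limma adjusted p up to 0.0623. The CD8 change minus the CD4 change was -3.10 ± 0.473 on the log2 scale (SE, limma's adjusted p = 0.000136), and -3.65 without JL019-2.

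Gpr15, the receptor tied to the large intestine, was between 971 and 1144 in the CD4 allogeneic libraries and 827, 102 and 251 in the CD4 syngeneic ones, of which 102 is JL019-2. The allogeneic libraries were all above the syngeneic ones, and the log2 change was 1.93 ± 0.414 (SE, limma's adjusted p = 0.00152). Without JL019-2 the change was 1.22 (limma adjusted p = 0.0288). In a fit of only these 7 libraries the call was lost (limma adjusted p = 0.0949). CD8 cells went the other way. Gpr15 was 144, 160, 173 and 97.7 in allogeneic and 381, 323 and 630 in syngeneic CD8 libraries, so every allogeneic library was below every syngeneic one. The log2 change was -1.59 ± 0.414 (SE, limma's adjusted p = 0.00608), and without the syngeneic library JL027 its limma adjusted p was 0.0602. The CD8 change minus the CD4 change was -3.53 ± 0.586 (SE, limma's adjusted p = 0.000386), and -2.81 without JL019-2.

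Itga4, the subunit shared by the gut-homing and the Vcam1-binding integrin, was 9158, 9814, 10448 and 7287 in CD8 allogeneic libraries. In CD8 syngeneic libraries it was 633, 818 and 754. The means, 9177 ± 1365 (SD, n = 4) and 735 ± 93.9 (SD, n = 3), differed 12.5-fold, and the log2 change was 3.64 ± 0.269 (SE, limma's adjusted p = 6.77e-11). In CD4 cells the same gene was 4071 to 5577 in allogeneic and 3754, 2396 and 6291 in syngeneic libraries. These ranges overlapped, and the log2 change of 0.30 ± 0.269 (SE) did not pass (limma adjusted p = 0.53), and it was -0.04 without JL019-2. The CD8 change exceeded the CD4 change by 3.33 ± 0.38 on the log2 scale (SE, limma's adjusted p = 2.87e-06), and by 3.67 without JL019-2.

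Itgb7, the partner of both Itga4 and Itgae, was 12026 to 33694 in CD8 allogeneic and 13547 to 20714 in CD8 syngeneic libraries. The ranges overlapped (log2 change 0.47 ± 0.345, SE, limma's adjusted p = 0.367). The same held in CD4 cells, at 21655 to 37447 in allogeneic and 9506 to 39279 in syngeneic libraries (log2 change 0.44 ± 0.345, SE, limma's adjusted p = 0.473). That change was -0.14 without JL019-2. All 9 pairs of neighbours in the order of the 10 group means overlapped, from 29397 in CD4 allogeneic to 15916 in CD8 day 0. Some groups further apart in that order did not overlap. Itgb7 was higher in Treg after transplantation than at day 0, and at day 0 lower in Treg and in CD8 than in CD4 cells. None of these was called (limma adjusted p from 0.495 to 0.79). It was called higher in CD8 allogeneic cells than at day 0 with the library mean as a covariate, at 1.16 (limma adjusted p = 0.0238). In CD8 cells the 3 subunits of the 2 gut integrins thus gave a rise of Itga4, a fall of Itgae and no called change of Itgb7.

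Itgb1, the subunit shared by the Vcam1 and collagen receptors, was 36230, 36306, 46741 and 40659 in CD4 allogeneic libraries and 13895, 5170 and 11398 in CD4 syngeneic ones. The lowest of these, 5170, is JL019-2. The groups lay apart, and the log2 change was 2.09 ± 0.248 (SE, limma's adjusted p = 8.29e-07), or 1.66 without JL019-2 (limma adjusted p = 4.53e-06). In CD8 cells Itgb1 was 13842, 14383, 21072 and 13740 in allogeneic and 6761, 7945 and 7068 in syngeneic libraries. The log2 change was 1.10 ± 0.248 (SE, limma's adjusted p = 0.00174). The difference between the CD8 and CD4 changes, -0.99 ± 0.351 (SE), did not pass (limma adjusted p = 0.116), and without JL019-2 it was -0.56 (limma adjusted p = 0.382). It passed with the mean value of each library as a covariate, at -1.01, and without the CD4 syngeneic library JL019-1, at -1.28 (limma adjusted p = 0.0356 and 0.0268).

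The starts of Gpr15 and Itga4 are shown because these genes took opposite directions in CD8 cells and because, of the members with a sequence, they are the ones that hold the letters of the Runx element. Both runs are the 250 bases before the start, 5′ to 3′ on the strand of the gene, from RefSeq on GRCm38.p6, at chr16:58718873-58719122 on the minus strand for Gpr15 and chr2:79255176-79255425 on the plus strand for Itga4. Capitals mark matches to TGTGGT (Runx element, here as ACCACA on the other strand) and CAGAC (SMAD element, here as GTCTG).
Gpr15: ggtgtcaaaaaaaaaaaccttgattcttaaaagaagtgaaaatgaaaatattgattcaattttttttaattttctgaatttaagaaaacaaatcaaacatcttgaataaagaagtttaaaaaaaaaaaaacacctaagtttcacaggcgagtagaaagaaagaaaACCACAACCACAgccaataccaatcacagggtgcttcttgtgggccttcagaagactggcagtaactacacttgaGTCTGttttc
Itga4: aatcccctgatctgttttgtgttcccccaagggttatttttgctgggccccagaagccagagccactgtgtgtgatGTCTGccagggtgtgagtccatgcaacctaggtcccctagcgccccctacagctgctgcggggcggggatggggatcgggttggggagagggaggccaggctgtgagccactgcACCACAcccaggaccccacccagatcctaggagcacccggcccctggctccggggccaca

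In Gpr15 the Runx letters stand 2 times in a row, at bases -85 to -80 and -79 to -74 from the start, and in Itga4 1 time, at -60 to -55. Of 32851 promoters of the same length, 14.0% held TGTGGT on either strand at least 1 time and 1.25% at least 2 times. Of the 8 genes, 7 were matched in the sequence table by symbol. CAGAC was in 6 of those 7, all but Ccr9, and in 42.2% of all promoters. AGGTCA, the letters of a retinoic acid receptor site, and TGACTCA, those of an AP-1 element, were in 0 of the 7, and in 14.0% and 4.46% of all promoters. A match is a description of letters, not a site, and none of these genes' promoters was assayed here.

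Itgae, the CD103 chain that holds lymphocytes at epithelia, was 66.4, 89.3, 51.9 and 56.6 in CD8 allogeneic and 278, 485 and 347 in CD8 syngeneic libraries. Every allogeneic library was below every syngeneic one. The means, 66.0 ± 16.6 (SD, n = 4) and 370 ± 106 (SD, n = 3), differed 5.61-fold, and the log2 change was -2.46 ± 0.374 (SE, limma's adjusted p = 1.55e-05). In CD4 cells it was 147 to 324 in allogeneic libraries and 130, 83.8 and 349 in syngeneic ones, which overlap (log2 change 0.46 ± 0.374, SE, limma's adjusted p = 0.491). Without JL019-2 that change was 0.01. The CD8 change minus the CD4 change was -2.92 ± 0.529 (SE, limma's adjusted p = 0.000985), and -2.48 without JL019-2. The change within each label prefix differed in CD4 cells, 1.37 in JL019 (JL019-2 included) and -1.02 in JL027, whereas in CD8 cells it was -2.24 and -2.66.

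Itga1 and Itga2, the collagen receptor subunits also called CD49a and CD49b, are neighbours on chromosome 13 (GRCm38.p6, Itga1 at chr13:114958079-115101964 and Itga2 at chr13:114833081-114932100), with 25978 bases and 0 annotated genes between them. Itga1 was 1162, 1136, 1357 and 1289 in CD8 allogeneic and 41.4, 59.5 and 65.8 in CD8 syngeneic libraries. The groups were far apart and the means differed 22.2-fold. The log2 change was 4.47 ± 0.411 (SE, limma's adjusted p = 3.87e-09), the highest of the 8 genes in that comparison. In CD4 cells Itga1 was 553 to 716 in allogeneic and 70.6, 285 and 48.0 in syngeneic libraries, of which 285 is JL019-2. The groups lay apart, at a log2 change of 2.59 ± 0.411 (SE, limma's adjusted p = 5.29e-05), or 3.35 without JL019-2 (limma adjusted p = 9.42e-08). The CD8 change exceeded the CD4 change by 1.88 ± 0.581 (SE, limma's adjusted p = 0.062). With the recipient as a replicate block the same difference of 1.88 had a limma adjusted p of 0.0331. It passed as well with the library mean as a covariate and without either of the CD4 syngeneic libraries JL019-1 and JL027, at 1.89 to 2.40 (limma adjusted p from 0.011 to 0.0393). Without JL019-2 the difference was 1.12 (limma adjusted p = 0.223).

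Itga2 was 739, 747, 817 and 501 in CD4 allogeneic and 95.6, 58.9 and 233 in CD4 syngeneic libraries. The 58.9 is JL019-2, and the groups lay apart (log2 change 2.64 ± 0.365, SE, limma's adjusted p = 8.47e-06, or 2.20 without JL019-2). In CD8 cells it was 399 to 536 in allogeneic and 125, 233 and 281 in syngeneic libraries (log2 change 1.24 ± 0.365, SE, limma's adjusted p = 0.0152). That call was lost under quantile normalisation and without the syngeneic library JL019-1, with limma adjusted p up to 0.135. The CD8 change minus the CD4 change was -1.40 ± 0.517 (SE, limma's adjusted p = 0.134), and passed without the CD4 syngeneic library JL027, at -1.94 (limma adjusted p = 0.014). Without JL019-2 it was -0.96 (limma adjusted p = 0.374). Pelo, a ribosome rescue factor gene that lies within the span of Itga1, did not pass in these 2 comparisons, at log2 changes of 0.51 in CD4 and 0.45 in CD8 cells (limma adjusted p = 0.306 and 0.323). The starts of both genes are printed because the neighbours rose together in CD4 and CD8 cells. They are the 250 bases before each start, from RefSeq on GRCm38.p6, at chr13:115101965-115102214 for Itga1 and chr13:114932101-114932350 for Itga2, both on the minus strand, with CAGAC or GTCTG in capitals.
Itga1: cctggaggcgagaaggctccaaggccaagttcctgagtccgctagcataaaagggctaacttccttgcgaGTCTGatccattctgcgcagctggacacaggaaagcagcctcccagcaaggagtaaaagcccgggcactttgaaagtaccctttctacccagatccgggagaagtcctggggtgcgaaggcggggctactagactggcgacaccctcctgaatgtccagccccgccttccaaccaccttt
Itga2: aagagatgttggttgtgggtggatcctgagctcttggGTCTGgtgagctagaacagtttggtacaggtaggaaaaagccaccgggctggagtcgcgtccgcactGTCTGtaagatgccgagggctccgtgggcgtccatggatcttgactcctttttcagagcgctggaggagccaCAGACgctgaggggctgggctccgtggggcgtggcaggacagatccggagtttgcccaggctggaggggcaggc

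Of these motifs, CAGAC alone was found in the pair, 1 time in Itga1 and 3 times in Itga2. Of all promoters, 11.5% held it at least 2 times.

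Summed levels of 8 lists of markers of other cell types were compared between groups. In allogeneic against syngeneic cells 2 lists were higher and 2 lower without overlap in CD8 cells, and 2 were higher and 1 lower in CD4 cells without JL019-2. The summed level of the 12 myeloid markers was 5499 to 11106 in CD4 allogeneic libraries and 78825 to 84949 in the CD4 syngeneic ones other than JL019-2. In CD8 cells it was 6651 to 10766 in allogeneic and 38036 to 62066 in syngeneic libraries. The sum of 10 natural killer markers was 86153 to 129789 in CD8 allogeneic and 5689 to 9891 in CD8 syngeneic libraries. In CD4 cells it was 8632 to 16496 in allogeneic libraries, and 1890 and 1662 in the syngeneic ones other than JL019-2, where it was 73297. Of these markers 3 were higher without overlap (Gzma, Fcer1g and Spry2), 4 lower without overlap (Klre1, Klra8, Klra4 and Tyrobp) and 3 overlapped (Ncr1, Klrb1c and Klri2) in CD8 cells. Gzma was 83340 to 126320 in allogeneic and 1557 to 3506 in syngeneic CD8 libraries, and Klra8 was listed at 0 in all CD8 allogeneic libraries. Most of the natural killer sum in CD8 allogeneic libraries was thus Gzma, so the sum need not follow natural killer cells, here or below. B-cell markers summed to 1176 to 1295 in CD8 allogeneic and 3286 to 4103 in CD8 syngeneic libraries, and to 986 to 1412 in CD4 allogeneic libraries against 304 and 309 in the CD4 syngeneic ones other than JL019-2. Stromal and endothelial markers summed to 2518 to 2945 in CD8 allogeneic and 1038 to 1586 in CD8 syngeneic libraries. The part of RNA from these cell types in the changes of the 8 genes was not tested.

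Against the cells before transplantation, allogeneic CD4 cells had 5 genes higher and 0 lower, with 24% of all genes called, and allogeneic CD8 cells 3 higher and 2 lower, with 30.4% of all genes called. Syngeneic CD4 cells had 1 higher and 1 lower, with 13% of all genes called, and syngeneic CD8 cells 1 higher and 3 lower, with 24.2% of all genes called. The allogeneic and the syngeneic comparisons of a population share their 2 day 0 libraries, so their values are given side by side only. Of the 8 lists of other cell types, 4 were higher and 1 lower without overlap in CD4 allogeneic, 3 higher and 3 lower in CD8 allogeneic, 3 higher and 2 lower in CD4 syngeneic (without JL019-2), and 4 higher and 4 lower in CD8 syngeneic cells than at day 0. The natural killer sum was 691 to 714 in CD4 and 1498 to 1815 in CD8 day 0 libraries, and the myeloid sum 892 to 1808 and 3820 to 5264. Both sums were below all later libraries of the same population given above, and the natural killer sum of the CD8 allogeneic ones was mostly Gzma. Mast cell and basophil markers summed to 444 to 514 in CD4 day 0 and 961 to 1808 in CD4 allogeneic libraries, and to 946 to 994 in CD8 day 0 and 573 to 755 in CD8 allogeneic ones. Stromal and endothelial markers summed to 4752 to 5306 in CD4 day 0 and 3661 to 4307 in CD4 allogeneic libraries. The erythroid sum was 32040 to 36283 in CD8 day 0, 585 to 14837 in CD8 allogeneic and 3351 to 11185 in CD8 syngeneic libraries. Their part in the changes from day 0 was not tested.

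**Figure D3:**
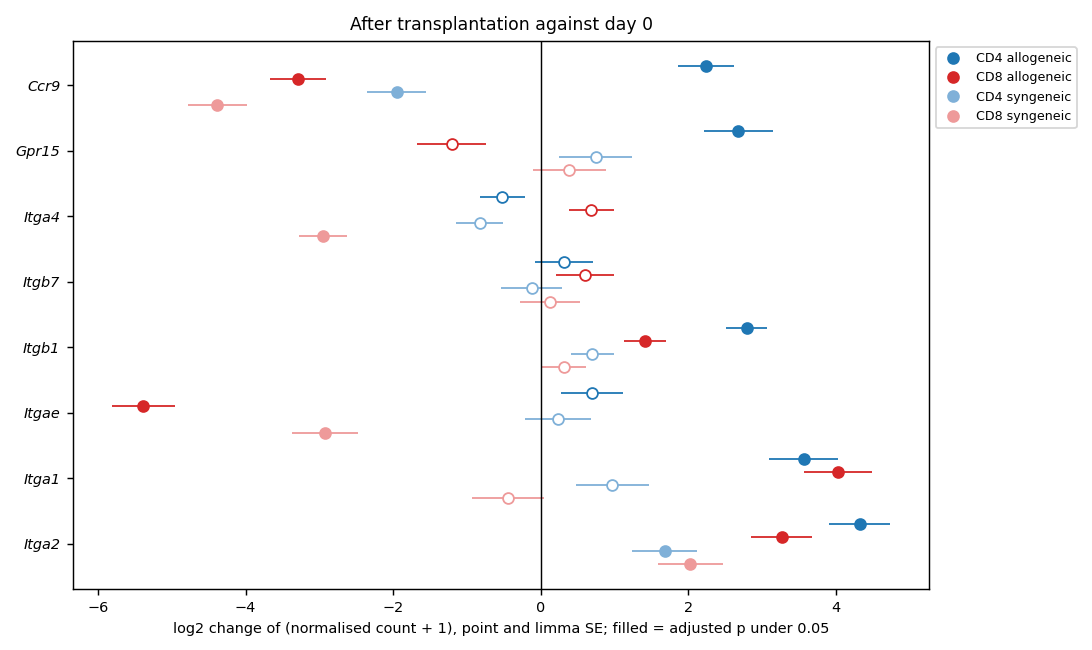
Log2 change of normalised count + 1 against day 0 for the 8 genes, as points with limma standard errors, dark colours for allogeneic and pale colours for syngeneic recipients, blue for CD4 and red for CD8 cells, filled where the adjusted p was under 0.05. Ccr9 lies at 2.24 in CD4 allogeneic cells and at -3.29 and -4.38 in CD8 cells, and Itgae at -5.39 in CD8 allogeneic cells.

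Day 0 CD8 cells started with high Ccr9, at 5415 and 7588, and high Itgae, at 2337 and 3212. After transplantation every CD8 library was lower in both. Ccr9 fell by 3.29 on the log2 scale in allogeneic recipients (limma adjusted p = 1.51e-07), and it fell by 4.38 in syngeneic ones (limma adjusted p = 2.51e-08). Itgae fell by 5.39 in allogeneic (limma adjusted p = 1.49e-10), where the means of 2775 and 66.0 differed 42.0-fold. In syngeneic recipients it fell by 2.92 (limma adjusted p = 4.42e-05). In CD4 cells Ccr9 was 730 and 657 at day 0. It rose by 2.24 ± 0.379 (SE) in allogeneic recipients (limma adjusted p = 5.47e-05) and fell by 1.95 in syngeneic ones (limma adjusted p = 0.00114, or 8.33e-06 without JL019-2, at a change of -2.50). In a fit of only these 5 libraries that fall was not called (limma adjusted p = 0.251), with 1.4% of all genes called. Without JL019-2, Gpr15 (1.46) and Itgb1 (1.13) were called higher in syngeneic CD4 cells too (limma adjusted p = 0.0283 and 0.00332), with 7.93% of all genes called. Itga4 in CD4 cells was not called from day 0, at -0.52 in allogeneic and -0.83 in syngeneic recipients (limma adjusted p = 0.243 and 0.0882). Both falls passed under quantile normalisation (limma adjusted p = 0.049 and 0.0347), the first also in a fit of only its libraries (limma adjusted p = 0.0139) and the second also without the syngeneic library JL027 (limma adjusted p = 0.0101). Without JL019-2 the syngeneic change of Itga4 was -0.49 (limma adjusted p = 0.45).

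Gpr15 in CD4 cells was 180 and 152 at day 0, below all 4 allogeneic libraries, a rise of 2.68 ± 0.47 on the log2 scale (SE, limma's adjusted p = 8.66e-05). In CD8 cells it was 274 and 386 at day 0, above all 4 allogeneic libraries, but the change of -1.21 ± 0.47 (SE) missed the threshold (limma adjusted p = 0.0527) and passed in a fit of only these 6 libraries (limma adjusted p = 0.0189). Itga4 in CD8 cells was 5127 and 6245 at day 0. It fell by 2.95 in syngeneic recipients (limma adjusted p = 4.25e-07), and the allogeneic change of 0.68 ± 0.305 (SE) did not pass (limma adjusted p = 0.0898). That rise was called in 2 alternatives, at 0.68 in a fit of only these 6 libraries (limma adjusted p = 0.0335) and at 1.20 with the mean value of each library as a covariate (limma adjusted p = 0.00158). In the means, the syngeneic CD8 libraries were 7.74-fold below day 0 in Itga4.

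The collagen receptor genes rose from low levels. Itga1 was 44.3 and 56.6 in CD4 and 96.8 and 57.6 in CD8 cells at day 0, and the allogeneic changes were 3.56 ± 0.466 (SE, limma's adjusted p = 1.21e-06) and 4.03 ± 0.466 (SE, limma's adjusted p = 1.61e-07). Pelo, within the span of Itga1, rose too in the CD8 comparison, by 1.03 (limma adjusted p = 0.0225). In syngeneic recipients the log2 values for Itga1 were 0.97 ± 0.491 in CD4 and -0.45 ± 0.491 in CD8 cells (SE), and neither passed (limma adjusted p = 0.205 and 0.52). Without JL019-2 the CD4 value was 0.21 (limma adjusted p = 0.843), and without the syngeneic library JL027 it was 1.49 and passed (limma adjusted p = 0.037). Itga2 was 33.8 and 33.2 in CD4 and 53.5 and 44.3 in CD8 cells at day 0. It rose in both kinds of recipient, by 4.32 in allogeneic and 1.68 in syngeneic CD4 cells, and by 3.27 and 2.03 in CD8 cells (limma adjusted p from 5.21e-09 to 0.00988). The call in syngeneic CD4 cells was lost in 4 of its alternatives, with limma adjusted p up to 0.308, and without JL019-2 the change was 2.12. Itgb1 rose by 2.79 in CD4 allogeneic (limma adjusted p = 1.3e-08) and by 1.41 in CD8 allogeneic cells (limma adjusted p = 0.000334).

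In the libraries labelled Treg, Ccr9 was 748 and 662 at day 0 and 14354, 19234 and 19081 after transplantation. The means, 705 ± 61.3 (SD, n = 2) and 17557 ± 2774 (SD, n = 3), differed 24.9-fold, and the log2 change was 4.63 ± 0.4 (SE, limma's adjusted p = 5.22e-09). These 3 libraries held the highest Ccr9 of all 31. Of the 8 genes, 3 rose and 0 fell, against 13.3% of all genes called. The others that rose were Itga1, from 113 and 50.3 to 352, 429 and 339 (log2 change 2.29 ± 0.491, SE, limma's adjusted p = 0.00171), and Itga2, from 239 and 176 to 601, 788 and 802 (1.82 ± 0.437, SE, limma's adjusted p = 0.00477). Both of these calls were lost without the day 0 library JL027 (limma adjusted p = 0.0883 and 0.0846). Itgae was 2327 and 3091 at day 0 and 6950, 6190 and 5515 afterwards, without overlap, at a change of 1.21 ± 0.447 (SE) that did not pass (limma adjusted p = 0.0764). Itga4 was 7163 and 7097 at day 0 and 5020, 4080 and 3252 afterwards, lower without overlap, at a change of -0.81 ± 0.321 (SE) that did not pass (limma adjusted p = 0.1). All 8 genes lay apart between these groups, 6 higher and 2 lower after transplantation. With groups this small such gaps can arise by chance, and the share of all genes that lay apart is not given here. In a fit of only these 5 libraries 6 of the 8 genes passed, with 23.9% of all genes called. The 3 genes beyond those named as called were Itgae and Gpr15, both higher (limma adjusted p = 0.00101 and 0.0115), and Itga4, lower (limma adjusted p = 0.0114). Itga4 also passed as lower under quantile normalisation, at -1.20 (limma adjusted p = 0.0155), and Itgae as higher with the mean value of each library as a covariate, at 1.65 (limma adjusted p = 0.00684). Of the 8 lists of other cell types, 3 were higher and 2 lower without overlap than at day 0. The natural killer sum was 804 to 1029 at day 0 and 5172 to 6590 after transplantation, the mast cell and basophil sum 235 to 317 and 1585 to 1835, and the erythroid sum 132 to 460 and 1713 to 50561. B-cell markers summed to 1140 to 1392 and then 641 to 933, and plasmacytoid dendritic cell markers to 1975 to 2051 and then 1038 to 1610. A natural killer sum can rest mostly on Gzma, as given above. The part of these lists in the changes was not tested.

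Against CD4 cells at day 0, Treg had 3 of the 8 genes higher and 0 lower, with 3.89% of all genes called. Itgae was 2327 and 3091 in Treg and 122 and 144 in CD4 libraries, 20.4-fold apart in the means (log2 difference 4.33 ± 0.489, SE, limma's adjusted p = 1.81e-06). Gpr15 was 1349 and 1043 against 180 and 152 (2.84 ± 0.543, SE, limma's adjusted p = 0.00168), and Itga2 239 and 176 against 33.8 and 33.2 (2.58 ± 0.478, SE, limma's adjusted p = 0.0012). Ccr9 was nearly level, at 748 and 662 against 730 and 657. Foxp3 was lower in these Treg than in these CD4 libraries, as given above, so the directions are those of the labels. All 8 lists of other cell types lay apart in this comparison, 5 higher and 3 lower in Treg, such as B-cell markers at 1140 to 1392 against 618 to 828 and mast cell and basophil markers at 235 to 317 against 444 to 514. Their part was not tested.

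In Treg-treated recipients, Treg had 2 genes higher and 1 lower than CD4 cells, with 30% of all genes called, and 3 higher and 3 lower than CD8 cells, with 36.2% of all genes called. Ccr9 was 3243 to 7569 in the CD4 and 412 to 740 in the CD8 libraries, all below the Treg libraries. The log2 differences were 2.10 ± 0.334 against CD4 (SE, limma's adjusted p = 5.99e-05) and 5.02 ± 0.334 against CD8 cells (SE, limma's adjusted p = 9.97e-12). Itgae was 99.2 to 213 in CD4 and 41.2 to 100.3 in CD8 libraries, at log2 differences of 5.60 ± 0.374 (SE, limma's adjusted p = 3.42e-11) and 6.65 ± 0.374 (SE, limma's adjusted p = 3.01e-13). The Treg mean of Itgae was thus 97.3 times the CD8 mean. Gpr15 was 1903, 1929 and 2106 in Treg, 13.5-fold above CD8 cells in the means (3.84 ± 0.414, SE, limma's adjusted p = 6.84e-08). Against CD4 cells it lay above every library without passing (0.84 ± 0.414, SE, limma's adjusted p = 0.126), and it passed in a fit of only these 7 libraries (limma adjusted p = 0.0124).

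Itgb1 was lower in Treg, at 7687, 7881 and 8626, than in CD4 cells, at 23455 to 39096 (log2 difference -1.79 ± 0.248, SE, limma's adjusted p = 9.19e-06). Against CD8 cells, at 10480 to 17501, the difference was -0.75 ± 0.248 (SE, limma's adjusted p = 0.0195), a call lost in 4 alternatives with limma adjusted p up to 0.373. Itga1 and Itga4 were lower in Treg than in CD8 cells as well, by -1.65 ± 0.411 (SE, limma's adjusted p = 0.00274) and -0.95 ± 0.269 (SE, limma's adjusted p = 0.00741) on the log2 scale. The call for Itga4 was lost under quantile normalisation and without the Treg library JL027, with limma adjusted p up to 0.0847. Of the 8 lists of other cell types, 1 was lower without overlap in Treg than in CD4 cells, the myeloid one, at 1962 to 7321 against 23818 to 86813. Against CD8 cells 4 were lower and 1 higher. The natural killer sum was 5172 to 6590 in Treg and 87297 to 233325 in CD8 libraries, the myeloid sum in CD8 libraries 11888 to 31809, and the mast cell and basophil sum, the one higher in Treg, 1585 to 1835 against 729 to 1370. The natural killer sum can rest mostly on Gzma, as given above, and the part of these lists in the differences was not tested.

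**Figure D4:**
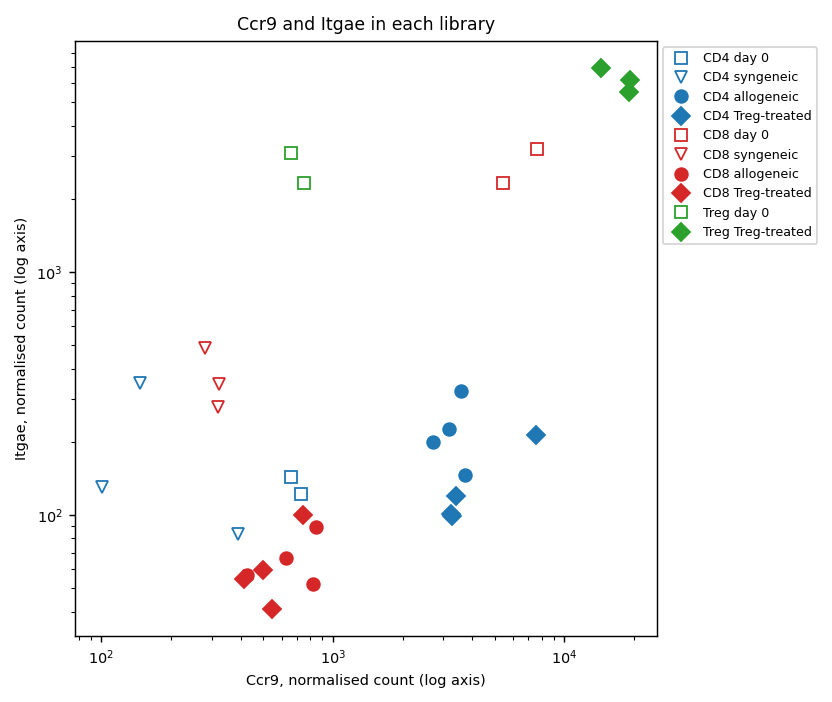
Ccr9 (horizontal) against Itgae (vertical), normalised counts on log axes, 1 symbol per library, blue for CD4, red for CD8 and green for Treg, open symbols for day 0 and syngeneic, filled for allogeneic and Treg-treated. The 3 Treg libraries after transplantation are highest in both genes, at 14354 to 19234 for Ccr9 and 5515 to 6950 for Itgae, and CD8 libraries after transplantation lie far below CD8 day 0 in both.

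Treg treatment gave no called change in the 8 genes. In CD4 cells 0 of the 8 were called in Treg-treated against untreated allogeneic recipients, with 22.2% of all genes called by limma, and 3 had an unadjusted p under 0.05. In CD8 cells 0 were called, with 0.0657% of all genes called, and 0 had an unadjusted p under 0.05. For the difference between the CD8 and CD4 effects 0 were called, with 0.00597% of all genes called, and 0 had an unadjusted p under 0.05.

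**Figure D5:**
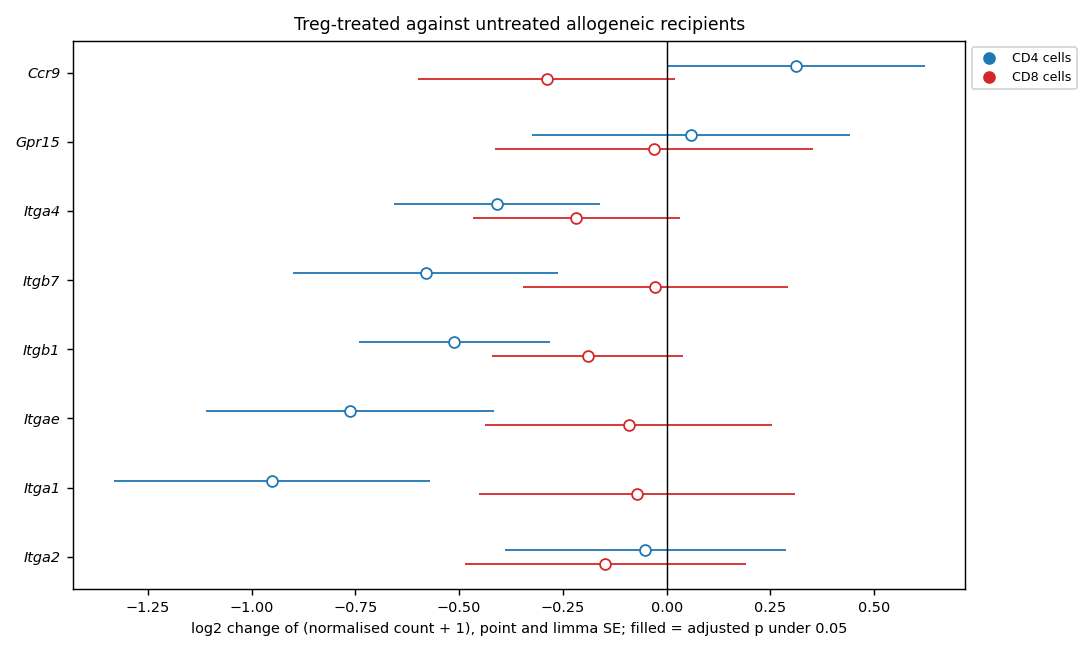
Log2 change of normalised count + 1 in Treg-treated against untreated allogeneic recipients for the 8 genes, as points with limma standard errors, blue for CD4 and red for CD8 cells. All symbols are open, since 0 of 8 passed in either population, and the lowest value is that of Itga1 in CD4 cells, -0.95.

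The largest of these changes was that of Itga1 in CD4 cells, at 299.7, 256, 466 and 261 in Treg-treated and 553, 565, 716 and 587 in allogeneic libraries. Every Treg-treated library was below every allogeneic one, and the log2 change was -0.95 ± 0.381 (SE, limma's adjusted p = 0.0709). In a fit of only these 8 libraries Itga1 and Itgb7 were called lower (limma adjusted p = 0.0152 and 0.0459), with 25.1% of all genes called. The log2 value was -0.76 ± 0.346 for Itgae, -0.58 ± 0.319 for Itgb7, -0.51 ± 0.229 for Itgb1 and, for Itga4, -0.41 ± 0.249 (SE, with a limma adjusted p from 0.105 to 0.24), with overlapping groups. The Treg-treated CD4 library JL027-1 was apart from the other 3 of its group, with Ccr9 at 7569 against 3243 to 3408, Itga4 at 6365 against 2862 to 3048, and Itgb1 at 39096 against 23455 to 25926. Its Cd4 was 17587, against 8722 to 9370 in the other 3 and 16706 to 21481 in the allogeneic libraries. Without it, 4 of the 8 genes were called lower in CD4 cells of Treg-treated recipients: Itga4 (-0.69), Itgb1 (-0.67), Itgae (-1.01) and Itga1 (-1.15), with limma adjusted p from 0.0222 to 0.0303. In that fit 33.6% of all genes were called. Itgb1 passed under quantile normalisation too, at -0.97 (limma adjusted p = 0.0144). The myeloid marker sum was 23818 to 86813 in these 4 CD4 Treg-treated libraries, above the 5499 to 11106 of the allogeneic ones. The stromal and endothelial sum was lower without overlap, at 1843, 1776, 3391 and 1439 in Treg-treated and 3661 to 4307 in allogeneic libraries, and the 3391 is JL027-1. The other 6 lists overlapped, and the part of these markers in the values was not tested.

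In CD8 cells Ccr9 was 412 to 740 in Treg-treated and 424 to 843 in allogeneic libraries, and Itga4 was 6356 to 9838 and 7287 to 10448. All 8 genes overlapped between these CD8 groups. The log2 changes lay between -0.29 for Ccr9 and -0.03 for Gpr15 and Itgb7, with standard errors from 0.229 to 0.384. The myeloid sum was higher without overlap in Treg-treated CD8 libraries, at 11888 to 31809, and so was the B-cell sum, at 1376 to 2177, while the other 6 lists overlapped.

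CD8 and CD4 cells differed in 2 of the 8 genes at day 0, 2 in syngeneic, 5 in allogeneic and 5 in Treg-treated recipients. At day 0, CD8 cells had 2 genes higher and 0 lower, with 3.32% of all genes called: Ccr9 (log2 difference 3.21 ± 0.438, SE, limma's adjusted p = 2.13e-05) and Itgae (4.36 ± 0.489, SE, limma's adjusted p = 1.12e-06). In syngeneic recipients 1 was higher and 1 lower, with 12% of all genes called. Itga4 was 5.64-fold lower in CD8 cells there (-2.39 ± 0.287, SE, limma's adjusted p = 1.05e-06, or a change of -2.73 without JL019-2). Itgae was higher with overlapping groups (1.20 ± 0.4, SE, limma's adjusted p = 0.049). Without JL019-2 the Itgae difference was 0.75 and did not pass (limma adjusted p = 0.239), and within the prefixes it was 1.80 in JL019 and -0.01 in JL027. It was lost in 7 alternatives in all, with limma adjusted p up to 0.349. Without JL019-2, Ccr9 (1.33) was called higher and Itgb1 (-0.80) lower in CD8 cells (limma adjusted p = 0.00637 and 0.0262), with 9.55% of all genes called. Without JL027, Itga1 (-1.36) was called lower and Itga2 (1.41) higher, and without JL019-1 Gpr15 (1.41) was called higher (limma adjusted p = 0.0436, 0.0124 and 0.0109).

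In allogeneic recipients 1 gene was higher and 4 lower in CD8 than in CD4 cells, with 6.15% of all genes called. Ccr9 (-2.32 ± 0.31), Gpr15 (-2.91 ± 0.384), Itgb1 (-1.36 ± 0.229) and Itgae (-1.72 ± 0.346, all SE) were lower without overlap (limma adjusted p from 9.57e-06 to 0.00189). Itga4 was higher, by 0.94 ± 0.249 (SE, limma's adjusted p = 0.0199), a call lost in 5 of its alternatives with limma adjusted p up to 0.0734. In Treg-treated recipients 2 were higher and 3 lower, with 9.61% of all genes called. Itga1 was 3.94-fold higher (1.91 ± 0.381, SE, limma's adjusted p = 0.00116) and Itga4 2.09-fold, with overlapping groups (1.13 ± 0.249, SE, limma's adjusted p = 0.00301, or 0.0631 in a fit of only these libraries). Ccr9, Gpr15 and Itgb1 were lower by -2.92, -3.00 and -1.04 (limma adjusted p from 1.91e-07 to 0.00312). Itgae missed the threshold there, at -1.05 ± 0.346 (SE, limma's adjusted p = 0.0537), and passed with the recipient as a replicate block (limma adjusted p = 0.0279). For Ccr9 and Itgae the direction between CD8 and CD4 cells at day 0 was thus the opposite of that in allogeneic recipients. Itga1 in allogeneic recipients was not called, at 1.03 ± 0.381 (SE, limma's adjusted p = 0.12), and passed in a fit of only those libraries (limma adjusted p = 0.000969). Markers of other cell types differed between CD8 and CD4 libraries as well. Of the 8 lists, 6 were higher and 1 lower without overlap in CD8 cells at day 0, 3 higher and 2 lower in syngeneic (without JL019-2), 1 higher and 2 lower in allogeneic and 3 higher and 1 lower in Treg-treated recipients, and their part in the differences was not tested.

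Genes of the same pathways were counted in 4 lists, other integrin subunits (18 of 20 in the table), integrin activation (20 of 20), retinoic acid response (13 of 20), and tissue residency and egress (24 of 24). In CD8 cells of allogeneic against syngeneic recipients, 8 of the 18 other integrin subunits rose and 0 fell, with a median log2 change of 0.80 against 0.02 over all genes, of which 21.1% were called. Itgb3, the beta subunit of the vitronectin receptor, was 7050 against 303 in the means (log2 change 4.53 ± 0.624, SE, limma's adjusted p = 3.73e-06), and Itgb5 105 against 15.6 (3.57 ± 0.774, SE, limma's adjusted p = 0.00118). In CD4 cells 2 rose and 1 fell, or 1 and 1 without JL019-2, a count chosen after the values were seen, with 14.6% of all genes called, or 10.9% without that library. Among them Itgax, which encodes the alpha subunit CD11c, changed by 2.13 ± 0.706 (SE, limma's adjusted p = 0.0408), and by 3.17 without JL019-2. The myeloid subunit Itgam, at 468 against 1875, fell by 1.59 (limma adjusted p = 0.0478), which was not called without JL019-2 (limma adjusted p = 0.423).

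The integrin activation list holds genes that regulate, in either direction, the switch of integrins to their binding state. Of its 20 genes, 2 rose and 0 fell in CD4 cells of allogeneic recipients (1 and 0 without JL019-2), with 14.6% of all genes called. In CD8 cells 3 rose and 1 fell, with 21.1% of all genes called. These shares were not above those of all genes. Rap1b, a small GTPase of this step, was 38704 against 19150 in CD4 cells (log2 change 1.01 ± 0.176, SE, limma's adjusted p = 0.00017), and 0.94 without JL019-2. Of the retinoic acid genes 2 rose and 4 fell in CD4 and 3 rose and 3 fell in CD8 cells, out of 13, beside the same 14.6% and 21.1% of all genes. The receptor gene Rarg was 37.9 in allogeneic and 276 in syngeneic CD4 cells (log2 change -2.76 ± 0.422, SE, limma's adjusted p = 3.11e-05), and -3.20 without JL019-2. The synthesis enzyme Aldh1a1 was 7.41 and 33.8 in CD8 allogeneic and syngeneic cells (-2.22 ± 0.797, SE, limma's adjusted p = 0.0472). Stra6, a retinol transporter, was listed at 0 in the CD8 syngeneic libraries and had a mean of 22.0 in the allogeneic ones.

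Of the residency and egress genes, 9 rose and 3 fell in CD4 (8 and 3 without JL019-2) and 7 rose and 7 fell in CD8 cells of allogeneic against syngeneic recipients, out of 24, beside 14.6% and 21.1% of all genes. Cxcr6, a receptor of tissue-resident T cells, was 36423 against 1943 in the means of CD4 cells (log2 change 4.27 ± 0.217, SE, limma's adjusted p = 3.92e-13), and Ahr, the aryl hydrocarbon receptor, 837 against 32.5 in CD8 cells (4.62 ± 0.336, SE, limma's adjusted p = 5.42e-11). Without JL019-2 Cxcr6 was still called in CD4 cells (limma adjusted p = 1.95e-12).

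Against day 0, 11 of the 24 residency and egress genes rose and 3 fell in CD4 and 10 rose and 4 fell in CD8 allogeneic cells, with 24% and 30.4% of all genes called. Ccr7, which guides T cells into lymph nodes, changed by -4.93 in CD4 and by -5.56 in CD8 cells on the log2 scale (limma adjusted p = 5.13e-09 and 6.41e-10). In Treg after transplantation 6 rose and 5 fell, beside 13.3% of all genes, with Ccr7 falling by 4.33 (limma adjusted p = 4.36e-07). In CD4 cells of Treg-treated against untreated recipients 0 rose and 6 fell of the other integrin subunits, 1 rose and 6 fell of integrin activation, 0 rose and 4 fell of the retinoic acid genes, and 2 rose and 5 fell of residency and egress, with 22.2% of all genes called. Without the library JL027-1 these counts were 0 and 6, 3 and 5, 2 and 5, and 2 and 5, with 33.6% of all genes called. Itgax changed by -2.47 and Itgal, the alpha subunit of LFA-1, by -1.98 there (limma adjusted p = 0.0153 and 0.0247), and by -3.08 and -2.48 without JL027-1. In CD8 cells 0 genes of the 4 lists were called. In Treg against CD4 cells of Treg-treated recipients 6 of the 18 other integrin subunits were higher and 1 lower, with 30% of all genes called, among them Itgb8, an activator of TGF-beta, with means of 438 against 22.5 (log2 difference 4.23 ± 0.659, SE, limma's adjusted p = 4.55e-05).

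The patterns of the 8 genes over the 31 libraries were compared with those of 13428 genes by Pearson r of log2 values, as a description, since the libraries share groups and depth. Ccr9 was most like Lztfl1, a gene of ciliary transport, at r = 0.900. Lztfl1 lies 49585 bases from Ccr9 on chromosome 9 (chr9:123694404-123717625 on GRCm38.p6), with 0 genes between them. Its mean was 4041 ± 606 (SD, n = 3) in Treg after transplantation, 1381 ± 140 (SD, n = 4) in CD4 allogeneic and 355 ± 32.9 (SD, n = 3) in CD8 syngeneic cells, the groups in which Ccr9 was 17557, 3300 and 308. In CD8 day 0 cells the order differed, since Ccr9 was second highest there, at 6502, and Lztfl1 was 866 ± 56.4 (SD, n = 2), below its level in CD4 allogeneic cells. The other genes within 200 kb of Ccr9 had r from -0.13 to 0.361, and Cxcr6 among them had 0.205.

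For 6 of the other members the most similar genes had r from 0.831 to 0.943. They were Igflr1 for Gpr15 (0.863), Ccng2 for Itga4 (0.831), the antigen-processing transporter gene Tap2 for Itgb7 (0.882), Wls, a carrier of Wnt proteins, for Itgae (0.873), Anxa7 for Itga1 (0.943) and Rhoc for Itga2 (0.920), which was also close to the transcription factor gene Batf (0.917). Among the 8 genes themselves the closest pairs were Itgb1 and Itga2 (0.675), Itga1 and Itga2 (0.658), and Ccr9 and Gpr15 (0.613). Itga1 and Itgae had the lowest value, -0.438. Without CD4 syngeneic JL019-2 these were 0.649, 0.690, 0.599 and -0.442, and r of Ccr9 with Lztfl1 was 0.899. The lowest pair was then Itgb1 and Itgae, at -0.455, against -0.399 with all libraries.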

How the data were processed

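Full-length cDNA was made with a SMARTer v4 kit and libraries with Nextera XT, per the labels' protocols. The submitters' processing notes name FastQC 0.11.7, kallisto, DESeq2 and the builds GRCm38 and mm10, and their settings are not given in the sources used here. The deposited RNA table holds a signal per gene and library, counts that the authors scaled between libraries, per the file headers. They are not whole numbers and reads could not be recovered, so the depth is unknown. The authors' deposited log2 fold change, test statistic (a score) and p-value columns name no groups and were not used. All 31 RNA columns were mapped to samples and 0 were left over. T-cell receptor tables, and 1 sample whose labels give no group, were not analysed here.

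The plan named limma for normalised values and a count test for counts, and limma 3.58.1 in R 4.3.3 (trend and robust options) was fitted to log2(value + 1) in 1 group-means model over all 31 libraries, checked on simulated data. All 16741 genes had a mean of at least 1. P-values were adjusted by Benjamini-Hochberg over all genes at 0.05, for 18 comparisons. A fold is a ratio of mean normalised counts. The 8 members, the gene lists and the tests were chosen with earlier results of these data known. Named genes are the 8 members, the 3 genes most like each by Pearson r among genes with a mean of at least 10 (predicted and receptor-segment genes left out), and from each list the 2 called genes with the largest change, of which some are printed and some are not reported here. Libraries that share prefix, arm and number in their titles were taken as 1 recipient in the block, which the labels do not state outright, and their consensus correlation was 0.145. Alternatives were a pseudocount of 0.1, a filter at 10 or none, quantile normalisation, the library mean as a covariate and the compared groups alone. Others were the prefix as a term, the recipient as a block, and each library left out, the last only for comparisons that use its group. Spans, r values, list counts and marker sums without single libraries were added after seeing the data. Symbols of all 8 members matched the gene name table. Python 3.11.15, numpy 2.4.6, pandas 2.3.3 and matplotlib 3.10.9 made the summaries.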

Additional observations from a re-analysis of the deposited data

Results flagged for a closer look

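Of 32 groups of 4 libraries checked among the 8 genes, 4 held a library whose gap to the nearest other took an unusually large share of the group's range. Chance gives this in about 1 in 20 independent groups. The 8 genes share their libraries, so these checks were not independent and the count cannot be set against that rate. In CD4 cells of Treg-treated recipients the library JL027-1 was set apart for 3 genes, Ccr9 at 7569, Itga4 at 6365 and Itgb1 at 39096. In CD8 cells of allogeneic recipients the library JL027-1 was set apart for Itgb1, at 21072.

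The change between allogeneic and syngeneic recipients differed between CD8 and CD4 cells for 4 genes by limma's interaction contrast. On the log2 scale the CD8 change minus the CD4 change was -3.10 for Ccr9, -3.53 for Gpr15, 3.33 for Itga4 and -2.92 for Itgae, and each had this sign in both label prefixes. In JL027 that sign rests on a lone syngeneic library of each population.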

How the results depend on the processing

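Of the 61 called changes of the 8 genes, 48 were called under every alternative run and 13 were lost in at least 1. Of 908 values of called changes under alternatives, 34 lost the call, 24 of them by leaving out a library, and 0 changed sign. Of the 61, 60 had the same sign in both prefixes, with Itgae in CD8 against CD4 syngeneic cells as the exception. Several groups, such as those of day 0, hold a lone library in a prefix, so a sign there can rest on that library. Of the 83 changes that were not called, 31 passed in at least 1 alternative, in 45 values, of which 19 came from leaving out a library and 12 from the compared groups alone. Quantile normalisation moved the median of all genes by up to 0.13 (Treg against CD8 in Treg-treated recipients).

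Counts of genes called moved by over 1.5 times in 4 comparisons, and the cause was not tested. For CD4 Treg-treated against allogeneic the count was 1 under quantile normalisation (23.3% of all genes called), 2 with the compared groups alone (25.1%), and 0 to 4 leaving out a library, the 4 without CD4 Treg-treated JL027-1 (33.6%). For CD4 syngeneic against day 0 it was 0 with the compared groups alone (1.4%) and 1 to 4 leaving out a library, the 4 without JL019-2 (7.93%) and the 1 without either day 0 library (5.82% and 5.63%). For Treg after transplantation against day 0 it was 6 with the compared groups alone (23.9%) and 1 to 3 leaving out a library, the 1 without the day 0 library JL027 (7.59%). For CD8 against CD4 syngeneic it was 1 with a pseudocount of 0.1 (11.4%), 1 with the compared groups alone (1.68%) and 1 to 4 leaving out a library, the 4 without CD4 syngeneic JL027 (12.1%) and the 1 without each of the CD8 syngeneic libraries (7.55% to 13.4%).

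With the recipient as a replicate block, Itgae in CD8 against CD4 Treg-treated cells (-1.05) and the CD8 minus CD4 difference of Itga1 (1.88) were called in addition, and no other call changed. Where a day 0 library was left out, the lone one was assumed to vary like the other groups. The depth behind the values is unknown, so the sampling error of low values such as Itga2 at day 0 could not be given.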
